A study of Mus musculus with 4 samples.

Results

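The widest interval of a mouse tooth germ series was examined: gene expression in the molar germ at embryonic day 18 (E18) against embryonic day 11 (E11), the last and the earliest stage, 7 days apart. Each stage was a pool of whole germs of the first molar of the mandible from C57BL/6 embryos, and no genetic change or treatment is given for any group. Total RNA of E11, E12, E16 and E18 was labelled with Cy5, and each was hybridised against E14 RNA labelled with Cy3 on its own two-colour Agilent array. There were 4 arrays in all, 1 pool and 1 array per stage, with no dye swap. How many germs or embryos made up a pool is not stated. The members were the 23874 non-control probes, of 41174, whose Cy5 signal was well above background on the E11 or the E18 array (or on both). Values on both arrays were left for 23871 of them (58.0% of the non-control probes), since spots flagged by the scanner software were dropped. They stood for 16060 genes, of 27669 on the array, each read from its brightest member probe. The measure is the E18 minus E11 difference of the log2 ratios over E14, in which the E14 channel cancels. A value of 1 is a 2-fold difference.

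A tooth germ is built from 2 tissues. The oral epithelium thickens, buds into the jaw and folds through cap and bell shapes, and the neural crest mesenchyme of the jaw condenses around it and forms the dental papilla and follicle. Signals of the Shh, FGF, BMP and Wnt families pass between the 2 tissues, partly from transient signalling centres called enamel knots. Late in the series the inner epithelium and the outermost papilla cells become ameloblasts and odontoblasts, which secrete enamel and dentin matrix.

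With 1 pool per stage no p-value could be given, and differences are described by size against 2 measures of technical error. The E14 channel was measured 4 times, and the SD of a gene over these readings was 0.05 at the median and 0.12 at the 95th percentile (log2 scale). Between the E14 channels of the E18 and E11 arrays, only 11 of 16060 genes (0.0685%) stood 2-fold apart. Among the 5626 genes with several member probes, the pooled SD between probes of a gene was 0.33. The E14 readings are of the Cy3 channel alone, after normalization and scaling between arrays. They do not measure the error of the Cy5 channel, which the E18 minus E11 difference contains. None of these errors contains the variation between embryos or pools. Per the file headers, slide 1 held the E11 and E12 arrays and slide 2 the E16 and E18 arrays, so that slide and stage cannot be told apart in E18 against E11. The steps E11 to E12 and E16 to E18 are each within a slide, and they are given beside the main values. Their sum holds the same E11 and E18 values as the main difference. For genes picked by that difference, the direction of the sum is therefore no independent check.

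In all, 1471 of 16060 genes (9.16%) differed at least 2-fold between E18 and E11. There were 1032 genes (6.43%) higher at E18 and 439 (2.73%) lower. The counts for gene lists below are to be read beside these 2 shares. At 4-fold, 276 genes (1.72%) were higher and 70 (0.436%) lower. At the level of probes, 1800 of 23871 (7.54%) passed 2-fold. Of these, 1239 (5.19% of all) were higher and 561 (2.35%) lower. The difference had a median of -0.02 over all genes and an SD over genes of 0.67. Thus 70.2% of the genes past 2-fold were higher at E18. That share rested on the scaling: it was 34.4% when each array was only centred on its median, with an all-gene median of -0.27, and 53.8% in the scanner software's own log ratios. Of the 1471 genes, 1236 were 2-fold apart in the same direction under median centring and 1466 in the scanner log ratios. The E18 array was also dimmer, with a median Cy5 signal of 51.5 against 61.3 at E11, and 52.5% against 55.2% of probes were well above background. The part of that difference in the results was not tested.

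**Figure D1:**
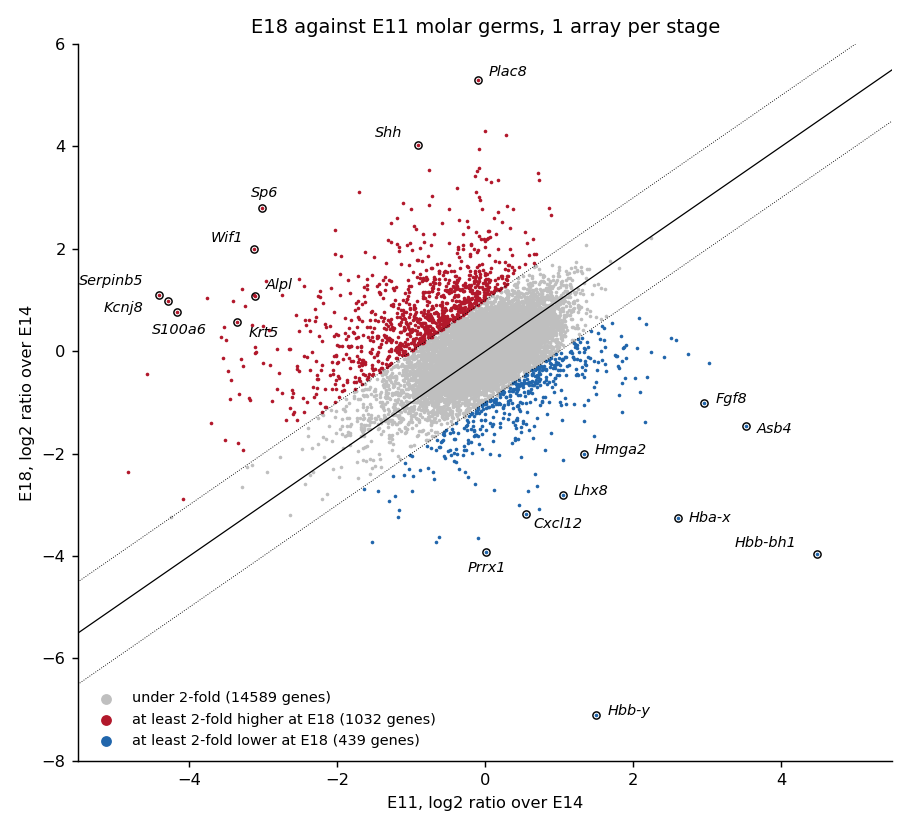
Each point is 1 of 16060 genes, with its log2 ratio over E14 at E11 on the horizontal axis and at E18 on the vertical axis; the solid line marks equal values and the dotted lines 2-fold. The 1032 red genes above the upper dotted line include Sp6, Shh and Plac8, and the 439 blue genes below the lower line include the embryonic globins, at log2 differences down to -8.61.

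The label was set against marker genes. All 31 listed epithelial keratin and junction genes and 23 of 26 jaw and dental mesenchyme factors were well above background on at least 1 of the 2 arrays. Over the whole array, 16060 of 27669 genes were measured by that rule. Of 20 skeletal muscle genes, 12 were measured, which is close to the share over all genes, and none was 2-fold apart. The 12, which had signal well above background on at least 1 of the 2 arrays, included the muscle factor Myog and the actin genes Actc1 and Acta1. The other 8 were not well above background on either array, the muscle determination factors Myod1 and Myf5 among them. Several terminal products of the tooth were at the detection limit. Enam, Mmp20 and Amtn, which encode an enamel matrix protein, the protease that cleaves enamel matrix and a protein of the mature enamel surface, were not well above background at E11 or E18. Dspp, the precursor of the dentin proteins, was not well above background at E11, E12 or E18 and was well above it at E16. Its log2 ratios over E14 were 0.03 and 0.21 at E11 and E12, 1.36 at E16 and 0.15 at E18. Dmp1, an acidic matrix protein of odontoblasts and osteocytes, had the same detection pattern, with -0.23, -0.28, 0.75 and -0.03. A second probe of the enamel protein gene Amelx was well above background at E16 alone, at 1.42, against -0.06 at E18. The brighter Amelx probe was well above background at all 4 stages, E11 included, and stayed between -0.17 and 0.11. Dspp, Dmp1 and the second Amelx probe were thus detected on the array labelled E16 and not on that labelled E18, whereas Sp6, Shh and Odam, described below, were highest at E18. What other tissue the pools may hold was not tested. In RNA from a whole germ, fewer cells of a type and less RNA per cell cannot be told apart, here and in every result that follows.

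The largest differences of the span were in the embryonic globins. Haemoglobin of the primitive red cells that leave the yolk sac contains the beta-like chains Hbb-y and Hbb-bh1 and the alpha-like chain Hba-x, which definitive red cells of the fetal liver replace with adult chains such as Hba-a1. The 250 bases before the start sites of the globin genes with an entry in the RefSeq promoter table are shown. They were chosen because embryonic and adult globin transcripts of 2 gene clusters had different courses over the span. Capitals mark matches, on either strand, to the letters of 4 elements long studied in globin promoters: the box CCAAT, the box CACCC, the TATA box as TATAAA, and the site GATA. Adjacent and overlapping matches are printed as 1 run.
Hbb-y (GRCm38.p6, chr7:103853208-103853457, - strand): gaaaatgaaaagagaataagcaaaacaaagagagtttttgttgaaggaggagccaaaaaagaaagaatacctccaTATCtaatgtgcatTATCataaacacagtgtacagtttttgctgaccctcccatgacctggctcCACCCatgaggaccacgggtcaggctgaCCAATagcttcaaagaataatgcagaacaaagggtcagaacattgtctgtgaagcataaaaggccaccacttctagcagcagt
Hba-x (GRCm38.p6, chr11:32276350-32276599, + strand): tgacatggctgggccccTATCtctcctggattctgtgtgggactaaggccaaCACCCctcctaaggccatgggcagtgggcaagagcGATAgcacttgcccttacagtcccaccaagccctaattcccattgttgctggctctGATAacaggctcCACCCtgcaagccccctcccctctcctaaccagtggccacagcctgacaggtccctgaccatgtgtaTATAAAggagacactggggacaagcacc
Hba-a1 (GRCm38.p6, chr11:32283422-32283671, + strand): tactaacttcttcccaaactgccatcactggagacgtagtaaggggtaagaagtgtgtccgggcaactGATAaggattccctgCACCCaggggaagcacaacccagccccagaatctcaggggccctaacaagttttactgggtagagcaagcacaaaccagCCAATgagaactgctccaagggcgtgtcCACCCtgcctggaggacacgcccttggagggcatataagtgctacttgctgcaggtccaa
Hbb-bt (GRCm38.p6, chr7:103813924-103814173, - strand): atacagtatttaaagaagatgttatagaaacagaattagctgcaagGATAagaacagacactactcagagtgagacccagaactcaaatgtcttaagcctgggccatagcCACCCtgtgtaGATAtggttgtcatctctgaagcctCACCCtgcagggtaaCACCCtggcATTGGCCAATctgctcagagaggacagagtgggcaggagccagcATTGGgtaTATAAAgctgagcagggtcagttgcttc
The Hbb-y window held 1 CCAAT, 1 CACCC and 2 GATA matches and no TATAAA match. The Hba-x window held no CCAAT match, 2 CACCC, 1 TATAAA and 3 GATA matches. In the Hba-a1 window there were 1 CCAAT, 2 CACCC and 1 GATA matches, and in the Hbb-bt window 3 CCAAT, 3 CACCC, 1 TATAAA and 2 GATA. Over 32851 promoters of the same length, 33.8% held CCAAT, 52.0% CACCC, 12.4% TATAAA and 53.6% GATA. Hbb-bh1 is named only. The arrays measured transcripts and not these windows.

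Hbb-y had log2 ratios over E14 of 1.5 (E11), 0.57 (E12), -6.03 (E16) and -7.11 (E18). The later pair of stages lay far below the earlier pair, and the difference of -8.61 was 390-fold, with an SD of 0.15 for its E14 channel (n = 4). Its probe maps to chr7:99909287-99909346 of mm7, the build of the array annotation. Hbb-bh1 had ratios of 4.48, 2.93, -3.79 and -3.97 in the same order by its brighter probe. It was not well above background at E18, and by that probe it was at least 350.3-fold lower there. The second Hbb-bh1 probe, also not well above background at E18, differed by less, at -7.35. Hba-x was at 2.60, 1.98, -2.99 and -3.26, which is 58.0-fold lower at E18. The median difference of the globin list, relative to all genes, was -5.84 and ranged over the alternatives from -6.72 to -2.55, the last with signal asked for on both arrays. For the 3 embryonic genes the within-slide steps went down too. These steps hold the E11 and E18 values of the main difference and are no independent check. From E11 to E12, the Hbb-y ratio dropped by 0.92, and from E16 to E18 it dropped by 1.08.

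Adult globin transcripts did not follow that course. Both Hba-a1 probes were under 2-fold higher at E18, at 0.73 and 0.74, and the brighter was at -1.37, -1.64, -0.85 and -0.64 from E11 to E18. No probe was assigned to Hba-a2, and whether the Hba-a1 probes also read it was not tested. Adult beta globin was read by 4 probes, named Hbb-b1 on the array and assigned to Hbb-bt through their accessions. Of these, 3 were higher at E18 by 3.53 to 3.88, and the brightest by 0.82. The adult beta genes are near-identical copies, so these probes cannot be assigned to 1 copy, and the disagreement leaves the size for adult beta globin uncertain. Other red cell genes were mixed. Of 15 measured, 4 were at least 2-fold lower at E18 and 1 higher, beside 2.73% and 6.43% of all genes. Slc4a1, the anion exchanger of the red cell membrane, was at 1.47, 0.68, -1.30 and -1.66, a difference of -3.13. Tal1, a transcription factor of blood progenitors, differed by -1.41. Hemgn, a nuclear protein of blood progenitors, was at least 4.5-fold lower, and Kel, a red cell surface protein, at least 2.95-fold lower, both without signal well above background at E18. The higher gene was Car2, a carbonic anhydrase of red cells and also of osteoclasts, at 0.85, -0.15, 0.79 and 2.80. The list's median of -0.52 went to 0.03 above that of all genes where signal well above background was asked for on both arrays.

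Among signals and transcription factors of the dental epithelium, 13 of 25 measured genes were at least 2-fold higher at E18 and 3 lower. Their median difference was 1.09, against -0.02 over all genes. Sp6, a transcription factor of the dental epithelium needed for ameloblast differentiation, was at -3.02 (E11), -2.86 (E12), 1.64 (E16) and 2.80 (E18). With 5.82, or 56.4-fold, it had the largest difference upwards among genes above background on both arrays (SD of the E14 channel 0.04, n = 4). The probe maps to chr11:97133587-97133646. A dimmer second probe of Sp6 gave 2.06. Shh, the ligand secreted by the enamel knots and later by the inner enamel epithelium, was not well above background at E11 and reached 2.27 at E16 and 4.03 at E18. It was at least 30.7-fold higher at E18. The secreted Wnt and BMP antagonist Sostdc1 was at -3.41, -2.0, 0.93 and 0.97, a difference of 4.39. The ligand Wnt10a, another signal of the enamel knot, was at -3.53, -2.96, 0.57 and 0.47, a difference of 4.0. Both had reached their E18 value by E16.

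The 3 genes that went the other way were Fgf8, Sox2 and Pitx1. Fgf8, the ligand with which the oral epithelium patterns the early jaw, was at 2.96 and 2.58 at E11 and E12 and at -1.17 and -1.01 at E16 and E18. It was 15.6-fold lower at E18 (SD of the E14 channel 0.27, n = 4), and its second probe, not well above background at E18, differed by -0.86. Sox2, a factor of dental epithelial progenitors, was at 0.10, 0.49, 0.59 and -1.42, so that its drop lay between E16 and E18. Pitx1, a factor of the mandibular arch, was at 0.96, 1.07, 0.07 and -0.46.

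Structural genes of epithelia made up the list with the most members past 2-fold. Of 31 keratin and junction genes, 23 were at least 2-fold higher at E18 and 1 was lower, with a median difference of 1.59. Krt5, a keratin of basal epithelial cells, was at -3.35 (E11), -2.16 (E12), 1.09 (E16) and 0.56 (E18), a difference of 3.91. Krt14, its partner keratin, was at -2.54, -1.09, 0.48 and -0.35, a difference of 2.19. The hemidesmosome collagen gene Col17a1 was at -3.24, -1.64, 1.69 and 0.89, a difference of 4.13. The desmosome gene Pkp1 was at -3.50, -2.30, 1.29 and 0.21. In these 4 genes, E16 was the highest stage. Cdh1, the adhesion molecule of epithelial cells, was at -1.63, -0.60, 1.36 and 1.26 and differed by 2.90. Over the list, the median step was 0.68 from E11 to E12, 1.59 from E12 to E16 and -0.44 from E16 to E18. The last step went against the span in 18 of the 24 genes past 2-fold, and the sum of the within-slide steps had the direction of the span in 20 of them. For the sum, this is close to the share over all higher genes (83.6%), and a match is partly built in. The lower gene was Cldn7, a tight junction claudin, at -1.18, and the keratin of simple epithelia Krt8 differed by -0.78.

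Keratinizing epithelium, which is not a component of the molar germ, had 16 of 25 listed genes measured, 6 of them at least 2-fold higher at E18 and none lower (median 0.88). The other 9, with the cornified envelope genes Flg and Ivl, were not well above background at E11 or E18. The median ratio of the 16 was -0.76 (E11), -0.65 (E12), 1.59 (E16) and 0.06 (E18). The protease inhibitor gene Spink5 was not well above background at E11 and E12 and was at 3.88 at E16 and 3.19 at E18, at least 10.8-fold higher at E18. The surface protein gene Ly6d was at -2.19, -2.44, 3.77 and 0.95. Krt13, a keratin of the layers above the basal layer in oral mucosa, was at -3.28, -1.93, 1.01 and -0.28, and Krt6a at -2.07, -1.98, 2.15 and -0.20. Their summit was at E16, and the median step of the list was 2.86 from E12 to E16 and -1.22 from E16 to E18. Only 2 of its 6 genes past 2-fold kept their direction in the sum of the within-slide steps, beside 83.6% of all higher genes. The part of such epithelium in the values of the keratin and junction genes was not tested.

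**Figure D2:**
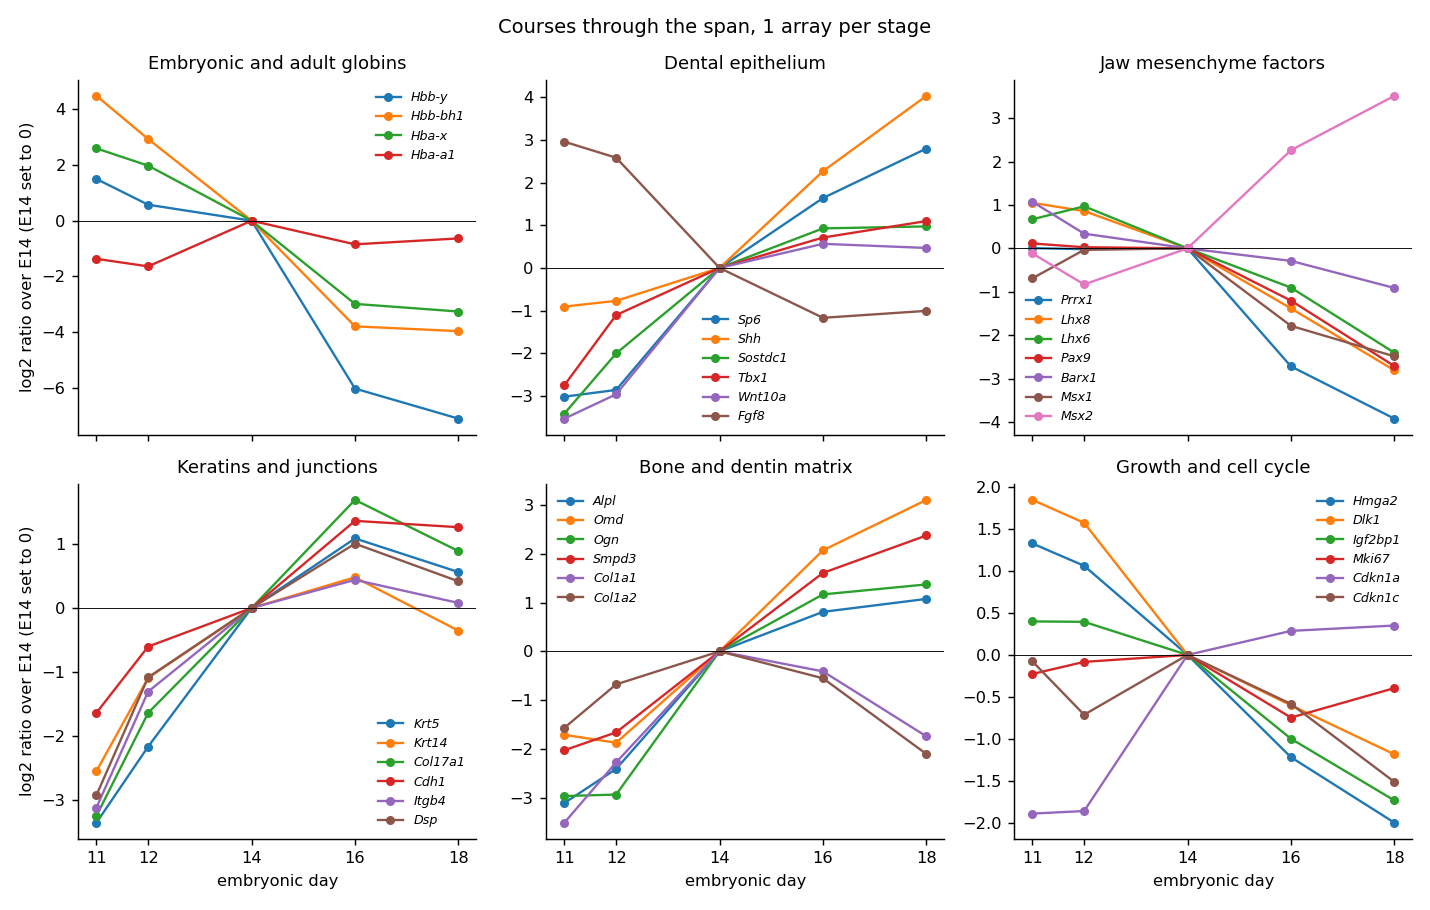
Log2 ratios over E14 at embryonic days 11, 12, 16 and 18, with E14 set to 0, for genes of 6 groups; every point is 1 array and the vertical scales differ between panels. Embryonic globins and jaw mesenchyme factors other than Msx2 end low, Sp6, Shh and Omd are highest at E18, and the keratins and Col1a1 turn down after E16.

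Of 23 measured factors and signals of the jaw and dental mesenchyme, 11 were at least 2-fold lower at E18, 10 were under 2-fold and 2 were higher, and the median difference was -0.84. Prrx1, a homeobox factor of limb and facial mesenchyme, was at 0.01 (E11), -0.02 (E12), -2.72 (E16) and -3.92 (E18), 15.2-fold lower at E18 (SD of the E14 channel 0.06, n = 4; probe at chr1:163209258-163209317). Of its 6 probes, 3 differed by -3.45 to -3.93, and the other 3, which were not well above background at E18, by -0.91 to 0.01. The LIM homeobox genes Lhx8 and Lhx6, both needed in jaw mesenchyme, had the same order of stages after E12. Lhx8 was at 1.05, 0.86, -1.38 and -2.81, and Lhx6 at 0.67, 0.97, -0.90 and -2.40. Pax9, without which teeth arrest at the bud stage, was at 0.11, 0.03, -1.20 and -2.71, a difference of -2.82. Msx1, whose loss also arrests teeth at the bud stage, differed by -1.80 and Barx1, a factor of molar mesenchyme, by -1.99. The sum of the within-slide steps had the direction of the span in all 13 members past 2-fold and was itself 2-fold in 7. Over all genes past 2-fold, it had that direction in 93.8% of the lower and 83.6% of the higher. It was itself 2-fold in 85 of the 439 lower and 136 of the 1032 higher genes. The genes were picked by E11 and E18 values that the sum contains, so a match is partly built in.

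The 2 higher members were Msx2 and Fgf3. Msx2, a homeobox factor that enamel knots and later ameloblasts also express, was at -0.12, -0.83, 2.26 and 3.51, 12.4-fold higher at E18. Fgf3, a ligand of the dental papilla, was not well above background at E11 and E12 and was at least 2.67-fold higher at E18. Bmp4, the mesenchymal ligand of the bud, was under 2-fold, at 0.45. Factors of the pharyngeal arches and mesoderm showed the same balance. Of 19 measured, 10 were at least 2-fold lower, 2 higher, with a median of -1.30. Eya1 and Eya4, transcriptional co-activators of arch and placode tissue, differed by -3.30 and -3.17. Osr1, a zinc finger factor that marks lingual jaw mesenchyme, differed by -2.47. Tbx1, a factor of the arches and of the dental epithelium, was higher, at -2.75, -1.10, 0.71 and 1.1. Of 20 Hox genes, 14 were not well above background on either array, and of the 6 others Hoxb3 was 2-fold apart, at -1.55.

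Of 20 measured odontoblast, dentin and bone genes, 11 were at least 2-fold higher at E18 and none lower, with a median of 1.77. Alpl, the phosphatase that supplies phosphate for mineral, was at -3.11 (E11), -2.41 (E12), 0.81 (E16) and 1.08 (E18), 18.2-fold higher at E18 (SD of the E14 channel 0.08, n = 4). The leucine-rich proteoglycan gene Omd was not well above background at E11 and E12 and was at 2.07 at E16 and 3.11 at E18, at least 27.1-fold higher. Ogn, of the same protein family, was at -2.97, -2.94, 1.17 and 1.37, a difference of 4.34. Smpd3, a sphingomyelinase needed for mineralization of bone and dentin, was at -2.03, -1.66, 1.61 and 2.38, a difference of 4.40 by the brightest of 3 probes, which spanned 1.38 to 4.40. Runx2, a transcription factor of osteoblast precursors, differed by -0.08. The collagens of bone and dentin were not highest at the end. Col1a1 was at -3.51, -2.28, -0.41 and -1.74 by its brightest probe, still 3.41-fold higher at E18 than at E11. Its other probes differed by 1.54 and by 0.19, the last not well above background at E11. Col1a2 was at -1.57, -0.68, -0.55 and -2.10, a difference of -0.54.

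Of 13 measured enamel and ameloblast genes, 7 were at least 2-fold higher and none lower (median 1.55), a further 7 not being above background. Besides Sp6 they included Odam, an ameloblast protein that was not well above background at E11 and E12, stood at 0.01 at E16 and at 2.45 at E18, and was at least 9.65-fold higher. Adgrf4, an adhesion receptor of ameloblasts, was at 1.81 at E16 and 3.57 at E18 and at least 11.6-fold higher, with an SD of 0.47 for its E14 channel (n = 4). Fam83h, a keratin-associated protein gene of which mutations cause soft enamel, was at -1.50, -0.51, 0.63 and 0.45. Ambn, Klk4 and Amelx were each under 2-fold apart between E18 and E11. Ambn, the ameloblastin gene, not well above background at E11, was at -0.18, 0.18, 0.82 and 0.17, Klk4 differed by -0.12 and Amelx by -0.04. With every listed gene kept whatever its signal, the list's median was 0.29 above that of all genes, in place of 1.57.

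Mesenchymal matrix was split. Of 29 measured genes, 10 were at least 2-fold higher, 1 lower, with a median of 0.58. The small proteoglycan gene Lum was at -1.28, -0.85, 0.56 and 2.14 and Col14a1, a collagen associated with fibrils, at -1.32, -1.50, 1.1 and 2.18. Postn, a matricellular protein of the dental follicle, was at -2.64, -1.02, -1.45 and -3.19 and Fn1, fibronectin, at -0.53, -0.01, -0.80 and -1.30, so that both were lowest at E18. Mfap4, a microfibril protein, was the lower gene, at -1.63. The median step of the list was 0.62 from E11 to E12, 0.59 from E12 to E16 and -0.63 from E16 to E18.

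**Figure D3:**
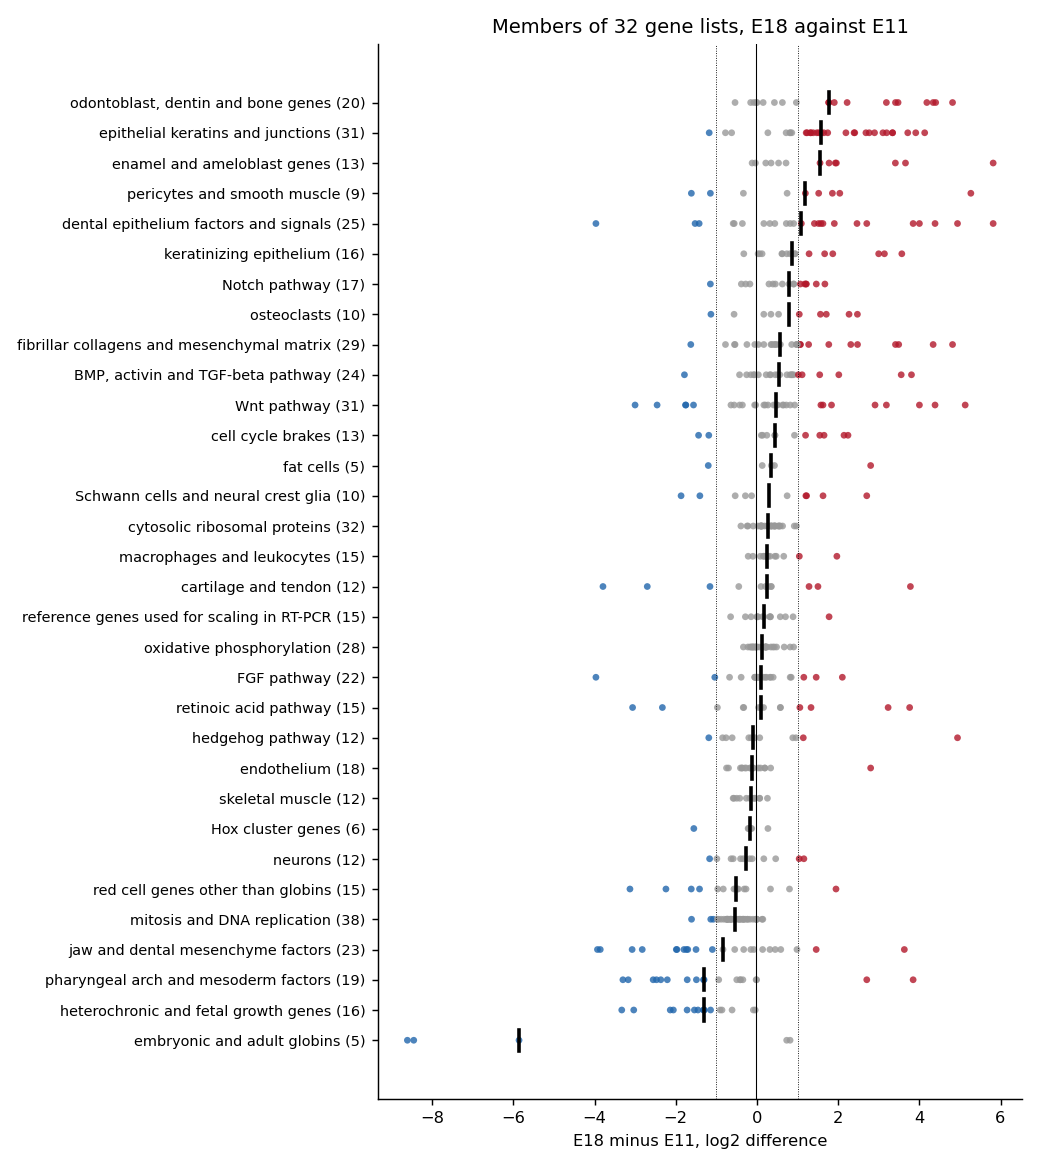
E18 minus E11 log2 differences of the measured members of 32 gene lists, with the number measured in brackets; red and blue points are at least 2-fold higher and lower at E18, the black tick is the list's median, the thin line the median of all genes (-0.02) and the dotted lines 2-fold. Odontoblast and bone genes lie farthest to the right (median 1.77) and globins farthest to the left (median -5.86), while ribosomal and oxidative phosphorylation genes stay within 2-fold.

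Among the signalling pathways, individual members moved far while most members stayed within 2-fold. Over all genes, 6.43% were at least 2-fold higher and 2.73% lower, and in short lists a count of 1 or 2 is little beside that. In the hedgehog pathway, 2 of 12 were at least 2-fold higher, 1 lower. The ligand Shh, described above, was among the higher genes. The receptor Ptch1, which is also a target, was at 0.02, 0.21, 0.82 and 0.98 and differed by 0.96. The co-receptor Gas1 differed by -1.19, with ratios of 0.87, 0.22, 0.28 and -0.31. In the Wnt pathway, 8 of 31 were higher and 5 lower, most of those at the ends being secreted inhibitors. Wif1, which binds Wnt ligands, was at -3.13, -2.35, 1.69 and 2.0, higher by 5.13, and Dkk1, which blocks the Lrp co-receptors, was higher by 3.19. The frizzled-related inhibitors went down, with Sfrp2 at -3.00, Frzb at -2.46 and Sfrp1 at -1.76. Sfrp2 was at -0.62, -0.05, -1.68 and -3.62 through the stages. The receptor gene Lgr5 differed by -1.75.

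Of 22 FGF pathway genes, 3 were higher and 2 lower. The receptor Fgfr2, whose epithelial form receives the mesenchymal FGFs, was at -1.49, -1.06, 0.97 and 0.62, a difference of 2.10 by the brightest of its 3 probes. Of the targets, Etv4 was higher by 1.15 and Dusp6 differed by -1.04. Fgfr2 was at 0.85 by the median over its probes, Etv4 at 0.81 with median centring and Dusp6 at -0.997 after Cy5 quantile normalization, each under 2-fold. Of 24 BMP, activin and TGF-beta genes, 6 were higher and 1 lower. Id4, an inhibitor of helix-loop-helix factors and BMP target, was at -1.20, -0.65, 1.53 and 2.61, and the decoy receptor Bambi at -0.13, -0.33, 2.25 and 3.42. The matrix protein Tgfbi differed by -1.79. Of 17 Notch genes, 6 were higher and 1 lower, with the ligands Jag2 at 1.67 and Jag1 at 1.46 and the target Hey2, not well above background at E11, at least 2.33-fold higher. In the retinoic acid pathway, the synthesizing enzyme Aldh1a2 and the degrading enzyme Cyp26b1 differed by -2.33 and -3.06, and their relatives Aldh1a3 and Cyp26a1 by 3.76 and 3.23. Aldh1a3 was at -0.73, -1.24, 2.05 and 3.03, and Aldh1a2 at 0.64, 0.49, -1.16 and -1.69. The pathway had 4 of 15 genes higher and 2 lower, with a median of 0.09, close to that of all genes.

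Heterochronic and fetal growth genes, which are abundant in early embryonic tissue and recede with age, had no member 2-fold higher and 11 of 16 lower (median -1.31). Hmga2, a chromatin protein of embryonic mesenchyme, was at 1.33 (E11), 1.06 (E12), -1.22 (E16) and -2.0 (E18), 10.1-fold lower at E18 (SD of the E14 channel 0.05, n = 4). Its 3 probes gave -3.33, -2.44 and -0.41. The imprinted genes Dlk1 and Mest differed by -3.03 and -2.06, and the RNA-binding protein gene Igf2bp1 by -2.14. Lin28b, which blocks maturation of let-7 microRNAs, was not well above background at E16 and E18 and was at least 2.66-fold lower, though under 2-fold (-0.81) by the median over its probes. In all 11 genes past 2-fold the step from E16 to E18 also went down. That step holds the E18 value by which these genes were counted.

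Genes of mitosis and DNA replication were mostly within 2-fold, on the lower side at E18. Of 38 measured, 3 were at least 2-fold lower, none higher, and the median was -0.54. The 3 were Ccne1 (cyclin E1, -1.61), Rrm2 (a subunit of ribonucleotide reductase, -1.14) and Aurka (a mitotic kinase, -1.07). Mki67, a marker of cycling cells, was at -0.23, -0.08, -0.75 and -0.40 and differed by -0.17, and Cdk1 by 0.13. Among 13 inhibitors of the cell cycle, 5 were higher and 2 lower. Cdkn1a was at -1.89, -1.86, 0.29 and 0.35, a difference of 2.24, and Cdkn2c, at 2.14, had the same course. Cdkn1c, an imprinted inhibitor, was at -0.08, -0.71, -0.58 and -1.51, a difference of -1.44.

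Other cell types of the germ and its surroundings showed smaller sets of differences. Counts here and in the next paragraph stand beside 6.43% of all genes higher and 2.73% lower, and the lists are short. Of 18 endothelial genes, 17 were under 2-fold, which is close to the share over all genes (9.16% past 2-fold). The exception was the fatty acid binding protein gene Fabp4, at least 6.68-fold higher, which fat cells and macrophages express too. Of 9 measured pericyte and smooth muscle genes, 5 were higher and 2 lower. Kcnj8, the pore subunit of a potassium channel of pericytes, was at -4.29, -4.48, 0.80 and 0.98, 38.6-fold higher at E18, with 1.93 by its second probe. Rgs5, another pericyte gene, was at -1.44, 0.38, -0.53 and 0.60, and the pericyte receptor Pdgfrb at -1.31, -0.72, -1.93 and -2.92. Schwann cell and crest glia genes were divided between 4 higher and 2 lower of 10. The crest glia factor Sox10 was not well above background at E18 and at least 2.65-fold lower, Fabp7, a gene of early glia, differed by -1.87, and S100b and Mbp, which maturing Schwann cells express, differed by 2.70 and 1.63. Of 12 measured neuronal genes, 2 were higher (Tubb3 at 1.16, Stmn2 at 1.04) and 1 lower (Nefl at -1.17). These 3 were under 2-fold under 1 alternative each, Tubb3 at 0.81 with median centring, Stmn2 at 0.89 after Cy5 quantile normalization and Nefl at -0.93 by the median over probes.

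Osteoclasts resorb the bone around the growing germ. Of 10 measured osteoclast genes, 5 were higher and 1 lower (median 0.79). The protease gene Ctsk was at -1.24, -1.49, 0.53 and 1.23, a difference of 2.47, the gelatinase Mmp9 differed by 2.27 and the phosphatase Acp5 by 1.56. Of 15 macrophage and leukocyte genes, 2 were higher: Tyrobp, a signalling adaptor, at 1.97, and the lysozyme gene Lyz2 at 1.04, which was 0.64 with median centring and 0.55 by the median over probes. Of 12 cartilage and tendon genes, 3 were higher and 3 lower. Scx, the factor of tendon progenitors, was at 0.72, -0.33, -2.77 and -3.07, 13.9-fold lower, and the cartilage collagen Col2a1 differed by -2.70. The matrilin gene Matn4 was at -1.0, -1.24, 1.75 and 2.78. Of 5 measured fat cell genes, Fabp4 was higher and the lipase gene Lpl lower, at -1.20, or -0.86 by the median over probes.

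Housekeeping sets served as a measure of scale. No cytosolic ribosomal protein gene of 32 and no oxidative phosphorylation gene of 28 was 2-fold apart, with medians of 0.28 and 0.13. Relative to the all-gene median, the ribosomal list ranged from -0.0046 to 0.31 over the alternatives and the other from -0.15 to 0.26. Of 15 genes used as references in RT-PCR, 14 were under 2-fold, Actb differing by -0.65. Hprt, a purine salvage enzyme on the X chromosome, was at -0.66, -0.67, 0.87 and 1.12 and 3.43-fold higher at E18.

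The leading genes outside these lists were varied. Upwards, Serpinb5, an epithelial serpin, was at -4.41, -3.61, 1.76 and 1.09, 45.4-fold higher at E18. Plac8, a small cysteine-rich protein gene, was at -0.10, -0.86, 1.92 and 5.30, 42.0-fold higher. The calcium-binding protein genes S100a6 and S100a14 were higher by 4.93 and 4.79, the tetraspan membrane protein gene Emp2 by 4.49 and Plekhs1 by 4.30. Downwards, Asb4, which encodes an ankyrin repeat protein, was at 3.52, 2.61, -1.08 and -1.46, 31.8-fold lower, with -1.41 by its second probe. The chemokine gene Cxcl12 was at 0.55, 0.58, -2.05 and -3.18, and Fndc3c1, Fibin and the protocadherin gene Pcdh10 differed by -3.55, -3.54 and -3.45. Of the 770 genes above background at E18 alone, over all their probes, 130 had a bound of at least 2-fold, among them Krtap17-1 (at least 14.9-fold) and Igfbpl1 (at least 6.65-fold). Of the 1270 above background at E11 alone, 33 had such a bound. Zmat4, a zinc finger gene, was at least 7.37-fold lower, the platelet genes Ppbp and Treml1 at least 6.39-fold and 4.27-fold lower, and Ddx3y, on the Y chromosome, at least 4.11-fold lower.

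Most of the span lay between E12 and E16. Of the 1032 higher genes, 807 (78.2%) took over 50% of their difference in that interval, 64 between E11 and E12, 85 between E16 and E18, and 76 in no interval. Of the 439 lower genes, the numbers were 261 (59.5%), 53, 81 and 44. That interval is the longest, 4 days, and it runs across the slides. Per day, the median step of the higher genes was 0.18 from E11 to E12, 0.29 from E12 to E16 and 0.097 from E16 to E18. For the lower genes it was -0.19, -0.21 and -0.16. The sum of the within-slide steps had the direction of the span in 863 of the higher genes (83.6%) and 412 of the lower genes (93.8%). It was itself at least 2-fold in 136 and 85 of them, and the step across slides in 627 and 172. The genes were picked by the E11 and E18 values that the sum contains, so a match in direction is partly built in. Steps all had 1 direction in 404 of the higher and 181 of the lower genes. After E16, 149 of the higher genes (14.4%) moved back by more than 25% of their span, and 3 of the lower genes (0.683%) did. Within a slide, over the same genes, 0.729% were 2-fold higher and 0.311% lower at E12 than at E11, and 0.523% were higher and 0.922% lower at E18 than at E16. From E12 to E16, 5.12% were higher and 1.59% lower.

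**Figure D4:**
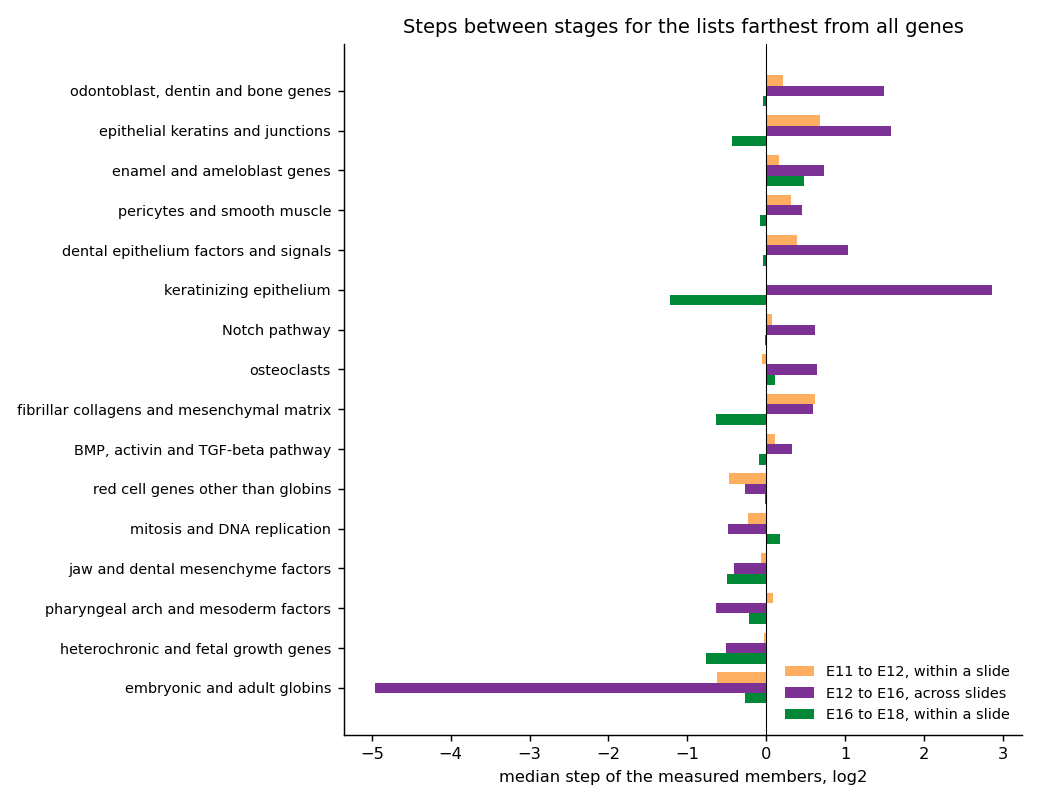
Median step of the measured members between stages, in log2 units, for the 16 lists whose median lay at least 0.5 from that of all genes; orange and green bars are steps within a slide and purple bars the step across slides. Keratins and junctions, keratinizing epithelium and matrix have green bars below 0 (-0.44, -1.22 and -0.63), and heterochronic genes have their longest bar at the last step (-0.76).

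Genes with most of the difference before E12 were led upwards by Mpped1, Itgb4, Celsr1, Trp73 and Ntng1. Mpped1, a metallophosphoesterase domain gene, was at -3.00 (E11), -0.88 (E12), 0.44 (E16) and 0.49 (E18). Itgb4, the integrin of hemidesmosomes, was at -3.11, -1.30, 0.44 and 0.08, and the planar polarity cadherin gene Celsr1 at -2.30, -0.77, 0.69 and 0.58. Trp73, a p53 family factor, and Ntng1, a netrin-related guidance molecule, were higher by 2.55 and 2.5. Downwards, Fli1, an ETS factor of endothelium and blood, was at 1.85, 0.28, -0.80 and -0.62, and Tcf15, a factor of paraxial mesoderm, at 1.33, -0.24, -0.96 and -1.04. Bcat1, an enzyme of branched-chain amino acids, was at 2.51, 1.17, -0.04 and 0.27. Zmat4 and Hemgn were in the same class.

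Genes with most of the difference after E16 were led upwards by Plac8, Krtap17-1, Pla2r1, Odam and Cdk5rap3. Krtap17-1, a keratin-associated protein gene, was not well above background at E11 and E12 and was at 1.08 at E16 and 3.94 at E18. The phospholipase receptor gene Pla2r1 was at 0.27, 0.39, 0.99 and 4.23. Cdk5rap3 was at 0.01, 0.03, 1.22 and 3.36 by its brighter probe, while its other probe gave -0.03. Downwards, Fibin was at -0.10, -0.38, -1.32 and -3.65, and Smoc1, a calcium-binding matrix protein, at 2.73, 1.86, 1.70 and -0.05. Ptprz1, a receptor phosphatase, was at -0.23, 0.45, -0.35 and -2.45, with an SD of 0.63 for its E14 channel (n = 4) and a difference of -0.59 by the median over its probes. Sfrp2 and Pax9 completed the class.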

How the data were processed

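Total RNA (Trizol, per the labels' protocols) from pooled molar germs was hybridised on 4 two-colour arrays, and the deposited scanner files come from Agilent Feature Extraction 10.5.1.1, per the file headers, with probe positions on mm7. The deposited red and green mean signals and local backgrounds are intensities on a linear scale, per the file headers. The deposited LogRatio is on a log10 scale, Cy5 over Cy3, after the software's own background and dye correction, per the file headers, and the deposited series value table, also log10, matched it in 100% of values within a relative tolerance of 0.006, with a median of 0 on each array. Intensities were background-corrected here (limma 3.58.1 in R 4.3.3, normexp, offset 50) and normalized within arrays by loess, with control and flagged spots (92 to 126 an array) at weight 0. None was saturated, and repeated spots of the same probe were averaged in log2. The member probes of 54 genes were over 2 log2 units apart.

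Genes were named through RefSeq tables of GRCm38.p6: 23075 probes matched an accession, 6582 a symbol and 3077 a synonym, while 8440 stayed under their array name. A probe not well above background in Cy5 at a stage has only a bound, computed from Cy5 signals after loess and scaling between arrays, against the higher of the lowest well-above-background signal and the dim probe's own, and open to dye bias without a swap. It was computed with and without division by the E14 channel, and the lower of the 2 folds is given. Whether probes lie in exons or untranslated regions was not analysed here. Named genes were the 12 highest and 12 lowest differences, the 6 largest bounds in either direction, at most 4 extreme members per list and end, a fixed set of markers and the 5 genes at either end of each time-course class. Members and lists were chosen with earlier results of these data known. The normalization was also run on simulated arrays, with as many probes raised as lowered and a dye effect common to both arrays. Such a balanced setting cannot test how the share of genes higher at E18 depends on the scaling.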

Additional observations from a re-analysis of the deposited data

How the results depend on the processing

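No paired analysis was possible because each stage had 1 array and the labels give no replicate numbers. Under 8 alternatives, the count of 1471 genes past 2-fold became 3970 with the scanner software's log ratios and 2364 with median centring, and lay between 1224 and 2110 with the other 6. The share higher at E18 was 53.8% with the scanner log ratios and 34.4% with median centring, against 62.3% to 71.7% with the others. The causes were not tested. Of the 159 named genes past 2-fold, none changed sign under the alternatives that gave a value, which with signal asked for on both arrays was so for 129 of them. Of the 159, 6 were under 2-fold with median centring, 2 with Cy5 quantile normalization and 11 with the median over probes. Of 16 lists at least 0.5 from the all-gene median, the red cell genes other than globins turned to 0.026 where signal was asked for on both arrays. Of 256 list medians under the alternatives, 47 others moved by more than the SD between probes. Signal over background limits the dim genes, and their folds are mostly given as bounds. Their stage ratios, some probe differences, the list medians and the counts past 2-fold use the plain values.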

Other observations

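The genes in this section other than Ddx3y, Ppbp, Treml1 and Hprt were chosen after their values were seen. Transcripts of the sex chromosomes differed between the pools. Ddx3y, on the Y chromosome, was at 0.44 (E11), -0.30 (E12), -0.36 (E16) and -1.72 (E18). Eif2s3y was at 0.70, 0.11, 0.53 and -1.31, and at least 3.58-fold lower at E18 than at E11. Kdm5d was at least 1.83-fold lower. All 3 were not well above background at E18. Xist, the RNA of the inactive X chromosome, was at -1.84, -0.81, -0.37 and -0.13, a difference of 1.71 by the brightest of 4 probes, which ranged from 0.39 to 2.01. Erdr1 differed by -2.19. The sex of the pooled embryos is not stated, and its part in other differences was not tested.

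Some platelet genes were over 2-fold lower at E18. Pf4, a platelet chemokine, was at 2.42, 1.62, 1.07 and -0.12, Clec1b, a platelet receptor, was at least 3.54-fold lower and Gp9 at least 2.49-fold lower. Itga2b and Gp1bb differed by -0.49 and -0.07. Mpo, an enzyme of myeloid cells, was at 1.84, 0.36, -0.19 and -0.19, at least 4.08-fold lower at E18.

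Tpm1, a tropomyosin gene with many splice forms, was the gene with probes 2-fold apart in opposite directions among the 5626 with several member probes. Its 3 probes gave -1.39, 0.85 and 1.69.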
